A study of Danio rerio with 18 samples.

Results

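The 4 unselected RNA libraries (inputs) of zebrafish embryo trunk, out of 18 samples in all, were set side by side by how much RNA of mettl3 each held. The series, in 9 groups of 2 samples, measured the RNA mark N6-methyladenosine (m6A) and RNA levels at 28 hours post-fertilization (hpf) with knockdown of mettl3 or ythdf2. In MeRIP-seq, mRNA fragments pulled down with an m6A antibody (IP) were sequenced beside the input. RIP-seq recovered RNA bound by Flag-tagged Ythdf2, and RNA-seq covered endothelial cells. The labels name 2 inputs of mettl3 morphants, embryos given a morpholino, a synthetic oligonucleotide that blocks translation or splicing of one transcript, and 2 inputs of normal control embryos.

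Within each replicate number, the input with more mettl3 counts per 1e+06 gene counts (CPM) was set against the input with less. In number 1 the input with more was the one labelled control, and in number 2 it was the one labelled morphant. The grouping therefore came from a measured level, whose order by label differed between the numbers, and not from the labels. The libraries were chosen by that level alone. No mean over the grouped libraries and no test of that grouping is given: values are shown by library, and ratios within a number. The sources used here do not give the embryo strain, the morpholino's target site, what control embryos were given or how many embryos were pooled. The labels' protocols give reads of 151 bp for number 1 and 101 bp for number 2, so number and read length cannot be told apart. Nothing in the labels says that the numbers were separate clutches, so the spread may be technical.

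Mettl3 is the catalytic subunit of the nuclear complex that writes m6A on mRNA. Its partner Mettl14 holds the RNA, and Wtap, Virma, Zc3h13 and the Rbm15 proteins place the complex on its targets. Reader proteins such as Ythdf2 then bind the mark and promote decay of the transcript, and in zebrafish embryos this pathway is known for its part in the emergence of blood stem cells from endothelium.

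The inputs with more mettl3 held 57.2 M and 50.01 M gene counts (M, counts times 1e+06) (numbers 1 and 2), against 32.8 M and 68.0 M in those with less. Depth was thus higher on the more side in number 1 and on the less side in number 2. Reads outside annotated genes took 12.5% to 13.5%, and the most abundant gene, which has no symbol, 16.4% to 19.4% in number 1 and 5.68% to 10.5% in number 2. Skeletal muscle markers summed to 29780 to 43584 scaled CPM in the 4 inputs and neural markers to 979 to 1176, so both tissues of the trunk were present. Symbols are printed as the gene name table gives them.

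METTL3 (ENSDARG00000012827) stood at 35.8 CPM in the input with more and 15.7 CPM in the input with less in number 1, and at 48.2 CPM with more and 19.6 CPM with less in number 2. The groups were chosen by these values. The 4 IPs carry the same labels and numbers and were not used for the choice. They held 43.5 CPM in the IP labelled control and 17.7 CPM in the IP labelled morphant in number 1, and 55.2 CPM in the IP labelled morphant and 22.3 CPM in the IP labelled control in number 2. Inputs and IPs thus had the same order, with a fold of 2.28 and 2.46 in inputs and 2.45 and 2.48 in IPs. An IP and an input of one label and number may come from the same RNA, so the IPs need not be a separate observation.

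Below, levels are CPM scaled by trimmed mean of M values (TMM), inputs and IPs apart, and a ratio is log2 of more over less mettl3 within a number. METTL3 then stood at 38.9 scaled CPM with more mettl3 and 17.3 with less in number 1, and 43.5 scaled CPM with more and 18.1 with less in number 2, ratios of 1.17 and 1.26. The partners in the writer complex did not share this difference: METTL14, WTAP, VIRMA, ZC3H13, RBM15 and RBM15B had ratios between −0.27 and 0.11. METTL14 measured 15.95 scaled CPM with more and 17.7 with less in number 1, and 18.9 with more and 18.6 with less in number 2. Of 8 reader and eraser genes tested none passed 2-fold in both numbers, where 0.193% and 0.143% of all genes were higher and lower. FTO, an eraser that removes methyl groups, had the largest ratios of these (0.43 and 0.66), while YTHDF2 had −0.01 and −0.07. Genes next to mettl3 in RefSeq's order on assembly GRCz12tu, such as tmem88b (−0.59 and −0.21), pop7 (−0.27 and −0.15), epoa (−0.20 and 0.07) and ufsp1 (0.23 and 0.27), stayed within 2-fold where they had a mean of at least 1 CPM. The neighbour tm4sf5, at a mean of 0.120 CPM, had 2.18 and −0.71.

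Of 18136 genes with a mean of at least 1 CPM over the inputs, out of 33737, 35 (0.193%) were at least 2-fold higher with more mettl3 in both numbers, METTL3 included. Another 26 (0.143%) were at least 2-fold lower in both. By contrast 3 (0.0165%) passed 2-fold in the direction of the label in both numbers, all lower in the inputs labelled morphant, and none was higher. These counts share the 4 libraries and describe them: the 2-fold rule chose the genes. All genes tested had median ratios of −0.00 and −0.01, and 45.2% had opposite signs in the numbers. RNF14, at 0.996 and 0.988, lay just outside the threshold and UGT1A1, at 1.001 and 1.12, just inside.

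The 3 genes in the label's direction have no symbol. ENSDARG00000088510 measured 0.235 scaled CPM in the morphant and 7.88 in the control input of number 1, and 0.0901 in the morphant and 3.79 in the control input of number 2. ENSDARG00000088673 measured 18.9 scaled CPM in the morphant and 52.4 in the control input of number 1, and 1.26 in the morphant and 6.38 in the control input of number 2. ENSDARG00000091738 measured 0.134 in the morphant and 9.32 in the control input of number 1, and 0 in the morphant and 12.09 in the control input of number 2. None of them passed 2-fold in the same direction in both numbers of the IPs.

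**Figure D1:**
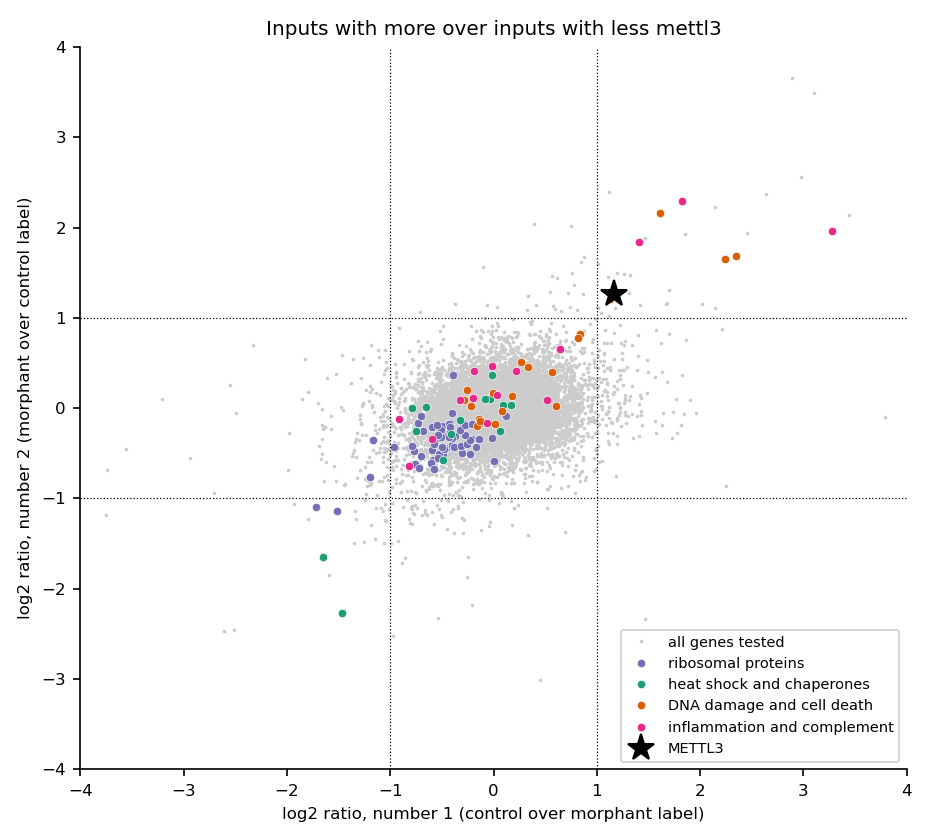
Ratios of the 18136 tested genes within number 1 (x axis, log2, input labelled control over input labelled morphant) and number 2 (y axis, log2, input labelled morphant over input labelled control), so that up and right mean higher with more mettl3. Colours mark 4 gene lists, the star METTL3 (covering mdm2), dotted lines 2-fold. 16 genes lie outside the axes. Genes of the DNA damage and inflammation lists reach into the upper right corner, ribosomal protein genes crowd below 0 on both axes.

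The 35 genes higher with mettl3 included several that respond to DNA damage and cell stress. Cells with damaged DNA halt their cycle or die, in part through cdkn1a and pro-apoptotic genes. mdm2 encodes a ubiquitin ligase, an enzyme that tags proteins for breakdown. mdm2 measured 61.8 scaled CPM with more and 28.3 with less in number 1, and 53.4 with more and 23.1 with less in number 2, ratios of 1.12 and 1.21. Its 2 libraries with more mettl3 lay near each other, as did the 2 with less, although each pair joins a control and a morphant label.

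cdkn1a, which encodes the cyclin-dependent kinase inhibitor p21, stood at 11.6 scaled CPM with more mettl3 and 2.45 with less in number 1, and 9.53 with more and 3.04 with less in number 2. PHLDA3, which restrains the kinase Akt, stood at 10.98 with more and 2.15 with less in number 1, and 9.80 with more and 3.04 with less in number 2. bbc3, a pro-apoptotic gene, stood at 5.53 with more and 1.81 with less in number 1, and 6.29 with more and 1.40 with less in number 2. In all 3 genes both inputs with more mettl3 lay above both with less, as in all 35 genes and in 15.7% of all genes tested. The choice of the 35 fixes much of this order. The ratios were 2.24 and 1.65 for cdkn1a, 2.35 and 1.69 for PHLDA3, and 1.61 and 2.16 for bbc3. In bulk tissue, fewer cells of a type and less RNA per cell cannot be told apart.

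Of 20 genes of the DNA damage and cell death list tested these 4 were higher and 0 lower, against 0.193% and 0.143% of all genes. This list and the others were chosen with earlier results of these data known. Shares beside those of all genes therefore describe the lists and are no independent support. A ratio above 0 in both numbers was found for 11 and one below 0 in both for 3, against 26.6% and 28.2% of all genes. The median was 0.22 in number 1 and 0.18 in number 2. CCNG1, which encodes cyclin G1, was the most abundant of the list and stayed under 2-fold at 1258 scaled CPM with more mettl3 and 703 with less in number 1, and 1023 with more and 581 with less in number 2. casp8, an initiator caspase, had ratios of 0.81 and 0.78. MDM4, a relative of mdm2, had −0.16 and −0.20, and SESN1 and pmaip1 had ratios between −0.18 and 0.17. The list therefore held a strongly different subset beside members that differed little.

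**Figure D2:**
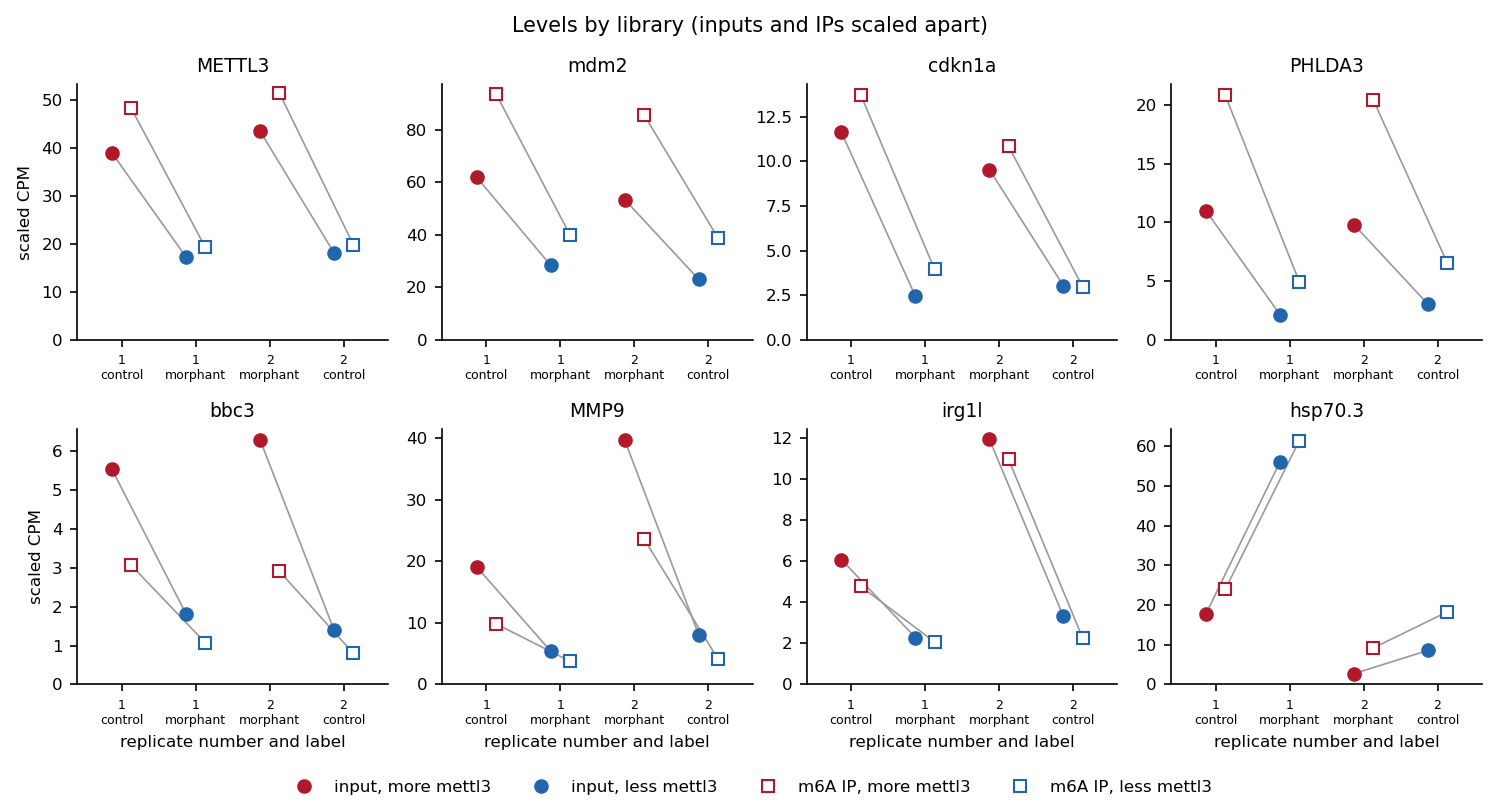
TMM-scaled CPM (y axes, from 0) of 8 genes by library, with the library holding more mettl3 left of the one holding less in each replicate number. Filled circles are inputs, open squares m6A IPs, red more and blue less mettl3, and grey lines join the libraries of 1 number. In 7 panels, METTL3 to irg1l, both red inputs lie above both blue ones, an order that the choice of these genes fixes in large part. hsp70.3 has the opposite order within each number and far lower levels in number 2.

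A second group among the 35 had roles in inflammation. MMP9, a protease that cuts extracellular matrix, measured 19.1 scaled CPM with more mettl3 and 5.41 with less in number 1, and 39.7 with more and 8.11 with less in number 2 (ratios 1.82 and 2.29). irg1l, related to the gene of the immune enzyme that makes itaconate, measured 6.08 with more and 2.28 with less in number 1, and 11.9 with more and 3.32 with less in number 2. mmp13a, another matrix protease, measured 2.28 with more and 0.235 with less in number 1, and 3.88 with more and 0.995 with less in number 2, with 7 counts in the lowest library. Both inputs with more mettl3 again lay above both with less in each of the 3 genes, against 15.7% of all genes tested. As above, the choice of genes fixes much of this. The chemokine gene cxcl18b (1.47 and 1.88), which attracts neutrophils, and IRAK3 (1.26 and 1.48), which dampens Toll-like receptor signalling, are not on the list.

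Over the whole inflammation list 3 of 15 genes tested were higher and 0 lower, against 0.193% and 0.143% of all genes. The medians were −0.02 and 0.15. ATF3 (0.64 and 0.66), a stress-induced transcription factor, fell short of 2-fold, while the early response genes egr1 (−0.91 and −0.12) and ier2b (−0.82 and −0.65) had ratios below 0. Of 7 leukocyte markers tested, none passed 2-fold in both numbers, near the share over all genes (0.193% higher and 0.143% lower). In both numbers 5 were below 0, against 28.2% of all genes, and 1, CEBPB, was above 0 (0.18 and 0.05). The 7 markers summed to 65.2 scaled CPM with more mettl3 and 75.9 with less in number 1, and 57.6 with more and 75.7 with less in number 2. lyz, the lysozyme gene of myeloid cells, had ratios of −0.78 and −1.16.

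Of 6 interferon response genes tested 0 passed 2-fold in both numbers, where 0.193% and 0.143% of all genes were higher and lower. Ratios above 0 in both were found for 5, against 26.6% of all genes. Among the 5 were mxc, an antiviral GTPase gene (0.56 and 1.46), and irf9, an interferon signalling factor (0.41 and 0.82). In the IPs the medians of the 6 were −0.19 and 0.51. Of the 24 matched genes of this list, the rest failed the filter on low values, and their ratios went both ways. Among these, mxe had −0.09 and −0.25, and DHX58 −1.34 and 0.11. Another was isg15, which encodes a ubiquitin-like protein induced by interferon. It measured 1.23 scaled CPM with more mettl3 and 0.202 with less in number 1, and 1.24 with more and 0.123 with less in number 2, ratios of 2.62 and 3.34.

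Further genes of the 35 with a known role were amh, the anti-Müllerian hormone gene (1.70 and 1.30), slc6a14, an amino acid transporter (1.32 and 1.47), STC1, a hormone of calcium balance (2.02 and 1.16), tcnbb, a cobalamin carrier (1.67 and 1.15), UGT1A1, a glucuronosyltransferase (1.001 and 1.12), and pth3r, a receptor for parathyroid hormone (1.17 and 1.11). Among genes with a symbol and at least 10 counts in each input, those with the largest smaller ratio had a clone name alone. si:dkey-204l11.1 measured 8.09 scaled CPM with more mettl3 and 0.940 with less in number 1, and 5.53 with more and 0.491 with less in number 2, ratios of 3.10 and 3.50. si:dkey-117j14.6 (3.45 and 2.14), si:dkey-40h20.1 (2.63 and 2.37) and si:dkey-85n7.7 (2.46 and 1.94) followed. Outside that limit, si:ch211-92l17.1 had 2.89 and 3.65 with 4 counts in its lowest library, and ENSDARG00000039957, without a symbol, had 2.98 and 2.56. 9 of the 35 have no symbol.

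By distance between the ratio pairs, among the genes most like mettl3 over the 4 inputs were mdm2 (0.067), pth3r (0.152) and 2 genes without a symbol, ENSDARG00000053592 (0.205) and ENSDARG00000062839 (0.220). The distance is Euclidean on the log2 scale and says nothing about levels.

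All 35 genes had both inputs with more mettl3 above both with less, against 15.7% of all genes tested, and all 35 were measured at above 0 counts in each input. The choice of genes fixes much of this. The IPs, which did not enter the choice, had a ratio above 0 for all 35 in both numbers, and 27 passed 2-fold in both. As the IPs may come from the same RNA as the inputs, they need not be a separate observation. Medians were 1.61 and 1.49 in inputs and 1.45 and 1.43 in IPs. For comparison, 28.7% of all genes were above 0 in both IP numbers, 2448 of the 4820 genes above 0 in both input numbers were, and 0.204% passed 2-fold in both IP numbers (37 genes, of which 27 are these). mdm2 stood at 93.6 scaled CPM with more mettl3 and 40.0 with less in the IPs of number 1, and at 85.7 with more and 38.8 with less in those of number 2, so that its IPs differed in the same direction as its inputs.

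Among the 26 genes lower with mettl3, those with a symbol, at least 10 counts in each input and the largest smaller ratio were 1 globin gene and 3 HSP70 genes. ENSDARG00000087337, with a 0 count, had −2.61 and −2.47, and actc1c had −3.75 and −1.18. hbae1.1, an embryonic globin gene, measured 6.13 scaled CPM with more mettl3 and 35.1 with less in number 1, and 3.73 with more and 20.6 with less in number 2, ratios of −2.52 and −2.46. In the IPs it had 0.18 and −0.41. Other globins differed less: hbae3 had −0.23 and −0.34 in inputs, and hbbe3 −0.29 and −0.06. Of 9 erythroid genes tested, 3 were above 0 in both numbers and 4 below, against 26.6% and 28.2% of all genes. Their medians were −0.23 and 0.015. Reads of near-identical globin copies may be split among them, so the value of any one copy is uncertain.

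hsp70.3, a heat-induced chaperone gene, measured 17.9 scaled CPM with more mettl3 and 56.1 with less in number 1, and 2.74 with more and 8.59 with less in number 2, −1.65 in each. hsp70l measured 2.73 with more and 7.56 with less in number 1, and 0.378 with more and 1.83 with less in number 2 (−1.47 and −2.27), and HSPA2 3.68 with more and 11.1 with less in number 1, and 0.469 with more and 1.69 with less in number 2. The less-mettl3 input of number 2 lay below the more-mettl3 input of number 1 in each of these genes, so the groups overlapped. HSP70 copies are also near-identical. HSPA2 is not on the heat shock list. Of 14 heat shock and chaperone genes tested 2 were lower and 0 higher, against 0.143% and 0.193% of all genes. The medians were −0.37 and −0.06. HSP90AB1, a constitutive chaperone, had −0.42 and −0.29, and hsf1, the factor that induces the response, 0.09 and 0.03.

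Ribosomal protein genes, which encode the protein part of the ribosome, were below 0 together. Of 63 tested, 60 had ratios below 0 in both numbers and 0 above in both, against 28.2% and 26.6% of all genes. Medians were −0.48 and −0.35, and 2 passed 2-fold lower, against 0.143% of all genes. RPS29 measured 496 scaled CPM with more mettl3 and 1415 with less in number 1, and 291 with more and 642 with less in number 2. RPL11 measured 146 with more and 480 with less in number 1, and 73.1 with more and 156 with less in number 2. The listed ribosomal protein genes took 5.81% and 6.42% of gene counts in the inputs with more mettl3, against 7.88% and 7.96% in those with less. The IPs did not share this in both numbers, with medians of −0.50 and 0.00. Where a ribosomal protein gene has near-identical copies, its reads may be split among them.

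Signs of library make-up differed within the numbers too. The 5.8S ribosomal RNA gene had 645 counts in the input with more and 36774 in the input with less mettl3 in number 1, and 85 with more and 198 with less in number 2. rn7sl1, the RNA of the signal recognition particle, measured 63.4 scaled CPM with more mettl3 and 144 with less in number 1, and 4.49 with more and 10.98 with less in number 2. The part of library preparation in the ratios of the lower genes was not tested. The remaining named genes were actc1c (cardiac-type actin), myha and myhc4 (myosin heavy chains), krt92 (keratin), ACAT1 and cox5aa (mitochondrial enzymes), NUBP2 (iron-sulfur cluster assembly), ccl27a (chemokine), apoa4b.3 (apolipoprotein), si:dkeyp-104f11.6 and si:ch211-198k9.6.

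krt92 measured 159 scaled CPM with more mettl3 and 328 with less in number 1, and 156 with more and 371 with less in number 2, close to the same level in libraries of opposite labels. ACAT1 did likewise, with 31.0 with more and 63.9 with less in number 1, and 29.8 with more and 62.1 with less in number 2. Of 17 epidermis genes tested, 13 were below 0 in both numbers, against 28.2% of all genes, among them the basal keratin krt5 (−0.84 and −1.003). 1 passed 2-fold lower, against 0.143% of all genes. The epidermal regulator TP63 had 0.33 and 0.46. Epidermis markers summed to 34363 scaled CPM with more and 39301 with less in number 1, and 27830 with more and 36139 with less in number 2. The part of tissue make-up in these ratios was not tested.

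Of the 26 lower genes, 10 had both inputs with more mettl3 below both with less, a larger share than the 16.4% of all genes tested. The choice of genes favours this order too. 1 of the 26, ENSDARG00000087337, had a 0 count, so that its ratio in number 2 is computed with a floor of 3 counts. Their IPs were mixed: 9 of 26 were below 0 in both IP numbers, against 26.4% of all genes. For comparison, 2341 of the 5117 genes below 0 in both input numbers were below 0 in both IP numbers. Of the 26, 2 passed 2-fold in both IP numbers, against 0.0551% of all genes. Median ratios were −1.29 and −1.24 in inputs and −0.47 and 0.07 in IPs. The 2 genes were HSPA2 (−1.42 and −1.19 in IPs) and ENSDARG00000094670 (−1.04 and −1.77).

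**Figure D3:**
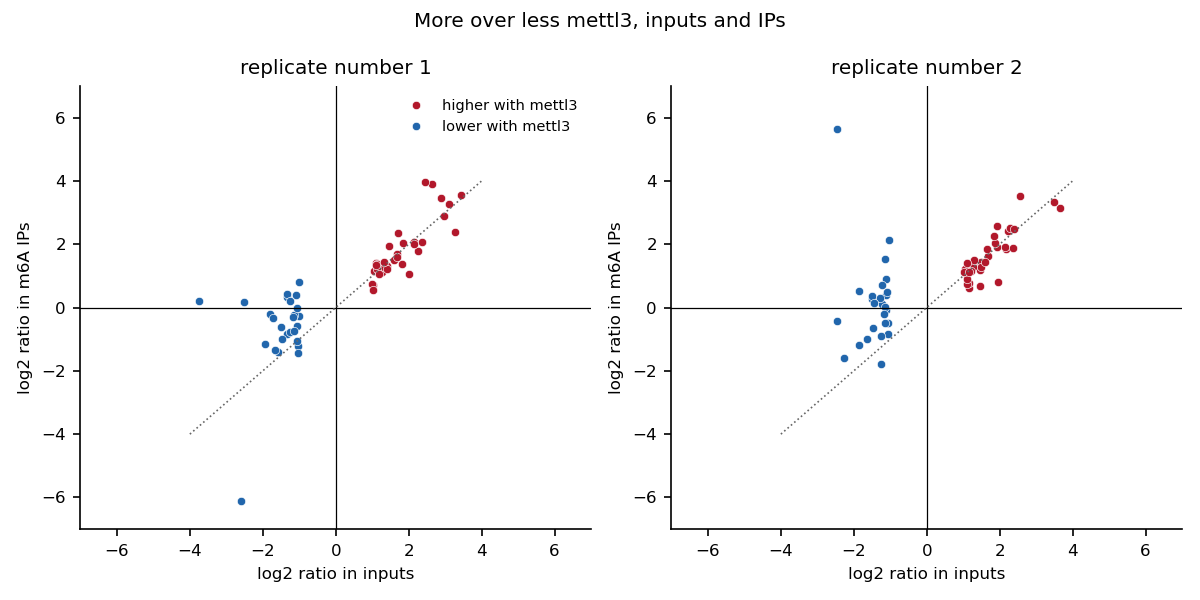
Ratios of the 35 genes higher (red) and the 26 lower (blue) with mettl3 in inputs (x axis, log2) and in the m6A IPs (y axis, log2), number 1 at left and number 2 at right, dotted line where they are equal. Red points stay in the upper right along the line in both numbers, while blue points spread to both sides of 0 in the IPs. The blue points farthest from 0 in the IPs are ENSDARG00000087337, where a 0 count was set to the floor of 3 counts.

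The other lists held 1 or no gene past 2-fold in both numbers. Replication and proliferation genes had medians of −0.22 and −0.10, with 14 of 19 below 0 in both numbers, against 28.2% of all genes. PCNA, the replication clamp, was at −0.48 and −0.56, and none of the list was past 2-fold in both. Nuclear respiratory chain genes had medians of −0.22 and −0.15, and 1 of 25, cox5aa, was lower, against 0.143% of all genes. Of the 25, 17 were below 0 in both numbers and 0 above in both. Skeletal muscle genes had 0.13 and −0.34, and endothelial markers −0.10 and −0.14, with 0 of 14 and 0 of 11 past 2-fold in both numbers. Neural markers had −0.12 and −0.11, with 0 of 13. Below 0 in both numbers were 4 of the 14 muscle genes, 7 of the 11 endothelial and 8 of the 13 neural markers. The same held for 7 of 11 yolk and liver markers, and 0 genes of these lists were above 0 in both. Ratios below 0 in both numbers were thus shared by several lists. The unfolded protein response (0 of 15), the proteasome (0 of 24) and the circadian and light response (0 of 11) held no gene past 2-fold in both numbers. Nor did the mitochondrially encoded genes (0 of 13), markers of notochord and cartilage (0 of 6), of neural crest and pigment (0 of 11) and of yolk and liver (0 of 11), the glucocorticoid and hypoxia response (0 of 9) or the hox genes (0 of 12). Of all genes, 0.193% were higher and 0.143% lower, so 0 in a list of such a size is near the share over all genes. It does not set these lists apart from other genes. Of 9 erythroid genes 1 was lower, hbae1.1, against 0.143% of all genes. Of the 13 mitochondrially encoded genes, 10 had opposite signs in the numbers, 2 were above 0 in both and 1, mt-nd4l (−1.99 and −0.69), below. mt-atp8 measured 3.65 scaled CPM with more mettl3 and 73.3 with less in number 1, and 3.30 with more and 2.11 with less in number 2. MT-ATP6 had −0.27 and 0.24. The part of library preparation in these values was not tested.

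**Figure D4:**
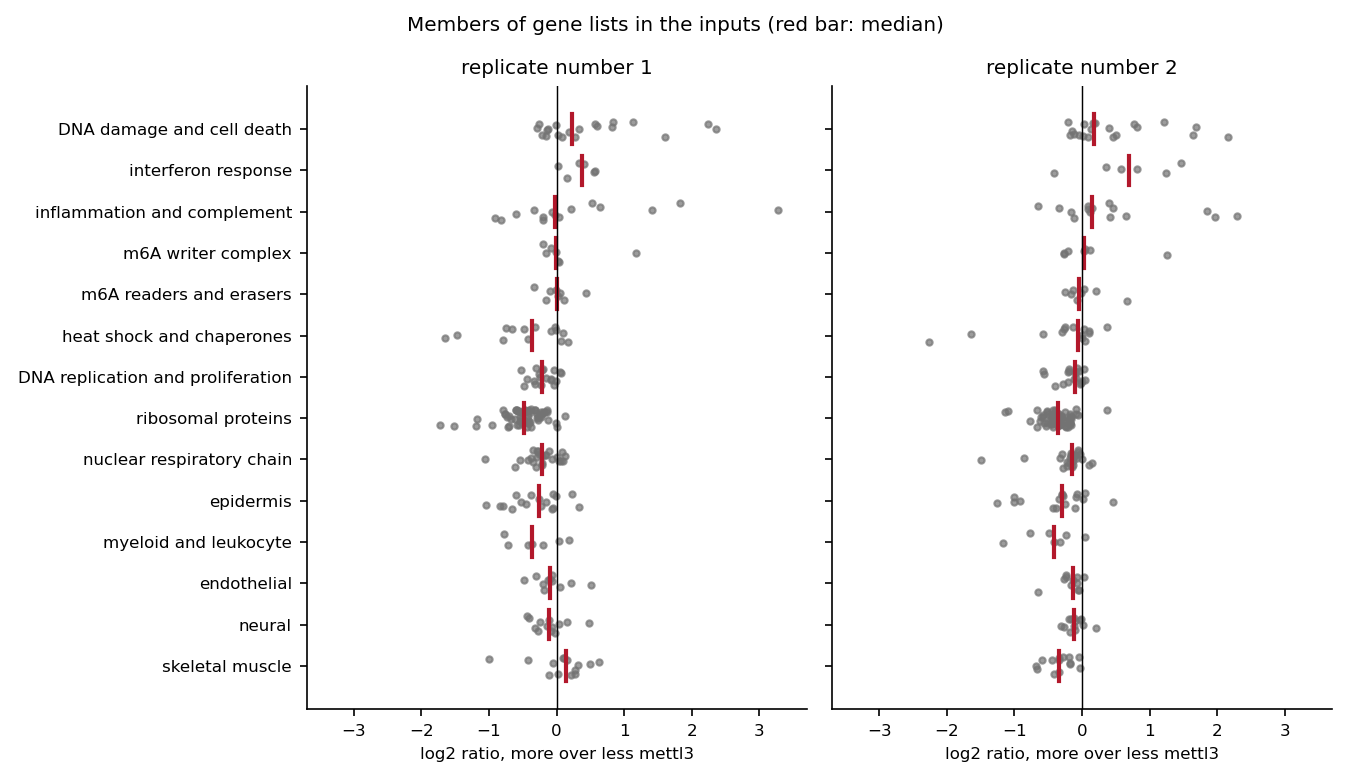
Ratios (x axis, log2, more over less mettl3) of the tested members of 14 gene lists in number 1 at left and number 2 at right. Each point is a gene and the red bar the median. The DNA damage and inflammation lists have a tail to the right, the heat shock list a tail to the left, and the ribosomal protein list lies left of 0 as a whole.

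Enrichment in the IP over the input was tested over 8 libraries with the pair of label and number as a block. This contrast lies within pairs and is not the one that chose the genes. Of 23163 genes 29.8% were higher in the IP and 31.5% lower (edgeR quasi-likelihood test, adjusted p below 0.05). The genes that follow mettl3 came from the 18136 with a mean of at least 1 CPM over the inputs. The shares over all genes thus rest on another filter. Of the 35 genes higher with mettl3, 5 were higher in the IP (PHLDA3, mdm2 and 3 genes with a clone name) and 17 lower, and the median log2 was −0.38, against −0.03 over all genes. Of the 26 lower genes 8 were higher and 4 lower, with a median of 0.32. Without the block the counts were 0 and 0 of 35 (0 and 2 at an unadjusted p below 0.05) and 3 and 3 of 26. That model leaves differences between the pairs of one label in the residual spread. Their part in the change of calls was not tested.

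Among these damage response genes enrichment was unlike. PHLDA3 measured 20.8 scaled CPM with more mettl3 and 4.96 with less in the IPs of number 1, and 20.4 with more and 6.57 with less in those of number 2. It lay above its input in each of the 4 pairs and was higher in the IP at log2 0.97 ± 0.09 (SE, 4 pairs, edgeR adjusted p = 4.1e-05). mdm2 was higher at 0.55 ± 0.07 (SE, edgeR adjusted p = 2.3e-04), and bbc3 was lower at −0.99 ± 0.13 (SE, edgeR adjusted p = 2.7e-04). cdkn1a had 0.16 (edgeR adjusted p = 0.250). METTL3 had 0.12 (edgeR adjusted p = 0.113), which passed the threshold under scaling by total counts at 0.21.

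Of the inflammation genes MMP9 (−0.89), mmp13a (−0.90) and irg1l (−0.37) were lower in the IP, with edgeR adjusted p = 8.4e-05, 0.0129 and 0.0182. tcnbb was lower too (−0.78, edgeR adjusted p = 2.8e-05). Among genes lower with mettl3, hsp70.3 (0.70), hsp70l (1.08) and HSPA2 (0.61) were higher in the IP, with edgeR adjusted p = 0.0255, 8.9e-04 and 0.0458. hsp70.3 lost this call without control replicate 2 (0.62), and HSPA2 lost it without control replicate 1 (0.76), without control replicate 2 (0.52) and without morphant replicate 2 (0.41). RPS29 (−2.34) and krt92 (−0.47) were lower, with edgeR adjusted p = 4.2e-05 and 0.0039, and the myosin gene myhc4 was higher at 3.31 (edgeR adjusted p = 5.8e-04). Without the block, hsp70.3 (0.38), hsp70l (0.92), HSPA2 (0.35) and krt92 (−0.46) lost their calls. RPS29 (−2.50) and myhc4 (3.07) kept theirs.

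The deposited peak lists held 32131 m6A peaks for the IP with more mettl3 and 27289 for the one with less in number 1, and 14878 with more and 23819 with less in number 2. More mettl3 thus went with more peaks in number 1 and with fewer in number 2. Gene counts in these IPs were 38.0 M with more and 52.7 M with less in number 1, and 78.3 M with more and 38.8 M with less in number 2. The lists were called per library and the sources used here do not state their thresholds.

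RNA recovered with Ythdf2-Flag was set against the control inputs, a pair that itself holds 1 library with more and 1 with less mettl3. Of 21005 genes 7.15% were higher in the RIP and 6.56% lower (edgeR quasi-likelihood test, adjusted p below 0.05). These shares too rest on another filter than the one that kept the genes that follow mettl3. Of the 33 tested genes higher with mettl3, 0 were higher (1 at an unadjusted p below 0.05, and 1 by DESeq2) and 1 was lower, the carrier gene tcnbb (−3.62 ± 0.69 SE, edgeR adjusted p = 0.0299). METTL3 had −1.19 (edgeR adjusted p = 0.190), and was called lower under scaling by total counts (−3.09), as were 30 of the 33. tcnbb lost its call without control input 1 (−3.12).

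Of the 26 genes lower with mettl3, 6 were higher in the RIP and 2 lower, RPS29 (−4.26) and RPL11 (−2.01), with edgeR adjusted p = 0.0276 and 0.0412. The 6 were hsp70l (2.30 ± 0.42 SE, edgeR adjusted p = 0.0276), HSPA2 (2.19, edgeR adjusted p = 0.0433), rn7sl1 (3.46), si:ch211-198k9.6 (2.11), ENSDARG00000087774 (3.16) and ENSDARG00000087853 (3.87). The count of 6 fell to 4 without control input 1, and to 0 without control input 2 and with all 4 inputs as the comparison (3 at an unadjusted p below 0.05 in each of these 2 fits). hsp70l, HSPA2, rn7sl1, RPS29 and RPL11 each lost the call when control input 1 or control input 2 was left out, and HSPA2 also without RIP replicate 1. Under scaling by total counts, hsp70l had 0.38 and HSPA2 0.28 and both lost the call, and 3 of the 26 were higher and 14 lower. The 3 genes in the label's direction had RIP values of 5.50, 6.27 and 3.58, in the order given above, with edgeR adjusted p = 0.0354, 0.0306 and 0.0410. The RIP libraries held 7.90 M and 5.27 M gene counts, with 42.9% and 43.8% of reads outside annotated genes.

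Endothelial cells, which line blood vessels, gave a comparison by label in other libraries. The 2 columns of each group differed by little more than sampling noise (a chi-square of 1.01 to 1.04 per degree of freedom, against 132 and 338 in the input groups) and were pooled as 1 sample a group, so no p-value is given and intervals cover counting error alone. METTL3 stood at 129 scaled CPM in the mettl3 morphant pool (1105 counts) and 30.4 in the ythdf2 morphant pool, against 21.8 in the control pool (184 counts). It was thus higher in the pool labelled mettl3 morphant by 2.57 on the log2 scale (exact 95% interval 2.35 to 2.81). METTL14 was higher there as well (log2 1.07), whereas in the inputs it did not share the difference. The other partners were lower in that pool than in the control pool, at log2 −0.74 for WTAP, −1.62 for VIRMA, −1.01 for ZC3H13, −1.20 for RBM15B and −6.22 for RBM15 (exact 95% interval −11.55 to −3.7), which had 1 count there against 74 in the control pool. Of all genes, 31.5% were at least 2-fold below the control pool there and 18.9% above. The columns of that pool detected 13079 and 13143 genes, against 15990 and 15944 in the control columns.

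PHLDA3 measured 13.5 scaled CPM in the mettl3 and 24.9 in the ythdf2 morphant pool, against 6.15 in the control pool. mdm2 measured 27.18 in the mettl3 and 62.5 in the ythdf2 morphant pool, against 23.3 in the control pool. cdkn1a measured 9.61 in the mettl3 morphant pool, 22.6 in the ythdf2 morphant pool and 12.5 in the control pool. bbc3 measured 18.7 in the mettl3 morphant pool and 0.136 in the ythdf2 morphant pool (1 count), against 8.98 in the control pool. The 4 genes were chosen for passing 2-fold in both input numbers, which fixed their common direction there. In the pools PHLDA3 was above the control pool under both labels by more than counting error. mdm2 and cdkn1a were so in the ythdf2 morphant pool alone, and bbc3 in the mettl3 morphant pool alone.

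**Figure D5:**
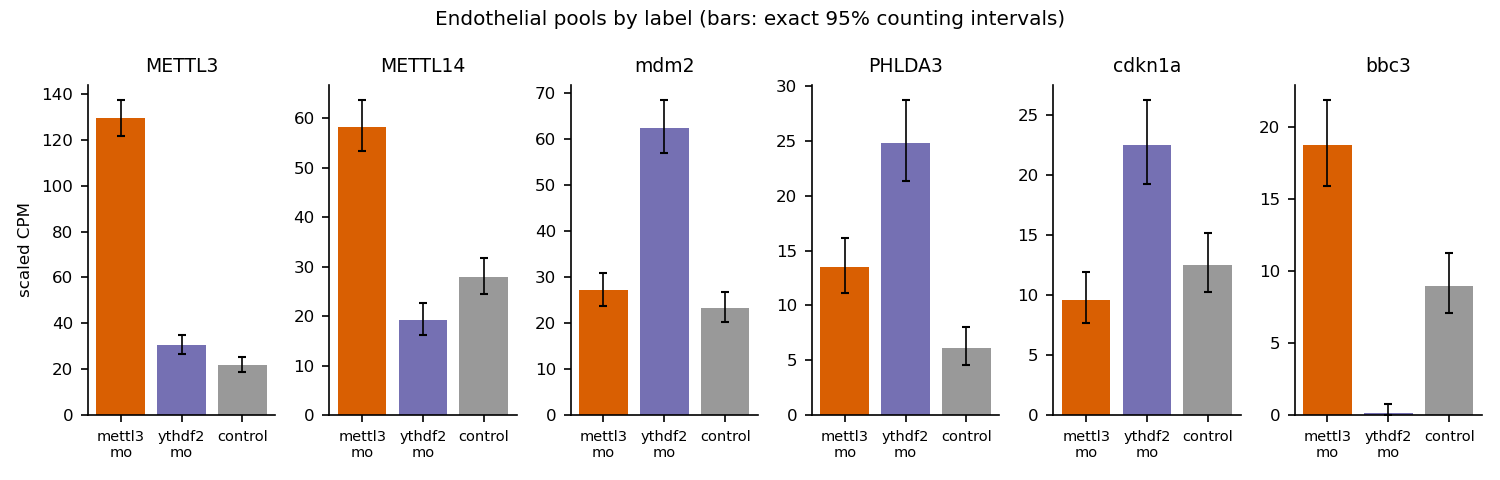
TMM-scaled CPM (y axes, from 0) of 6 genes in the pooled endothelial libraries labelled mettl3 morphant, ythdf2 morphant and control, 1 pool a label, with exact 95% counting intervals. METTL3 is highest in the mettl3 morphant pool at 129, mdm2 in the ythdf2 morphant pool at 62.5.

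MMP9, irg1l and cxcl18b were lower in both morphant pools than in the control pool, whereas METTL3 was higher in both. By label, the order of the 3 genes was that of the inputs of number 1 and the opposite of that in number 2. MMP9 had 0 counts in the mettl3 morphant pool and 7 in the ythdf2 morphant pool, against 42 in the control pool. irg1l had 0 counts in each morphant pool, against 89 in the control pool. cxcl18b measured 79.3 scaled CPM in the mettl3 and 9.10 in the ythdf2 morphant pool, against 234 in the control pool. Of the 35 genes, 19 had at least 20 counts in a pool. In the mettl3 morphant pool 6 of them were at least 2-fold above the control pool and 9 below, where 18.9% and 31.5% of all genes were. In the ythdf2 morphant pool 6 were above and 11 below, where 20.5% and 32.3% of all genes were. The pools were compared with the same control pool.

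The HSP70 genes differed between the morphant pools. hsp70.3 measured 9.61 scaled CPM in the mettl3 morphant pool and 75.8 in the ythdf2 morphant pool, against 53.4 in the control pool. hsp70l measured 22.02 in the mettl3 and 75.0 in the ythdf2 morphant pool, against 26.5 in the control pool. HSPA2 measured 4.45 in the mettl3 and 21.06 in the ythdf2 morphant pool, against 39.6 in the control pool, and so lay below it under both labels. Of the 26 lower genes 17 had at least 20 counts in a pool. In the mettl3 morphant pool 1 was at least 2-fold above the control pool and 12 below, where 18.9% and 31.5% of all genes were. In the ythdf2 morphant pool 2 were above and 6 below, where 20.5% and 32.3% of all genes were, so that the count below was near the share over all genes.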

How the data were processed

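RNA of trunk (MeRIP inputs and IPs, RIP) and of endothelial cells was compared. The authors deposited raw counts for 33737 Ensembl genes. The submitters' processing notes name TopHat2 2.0.9, HTSeq 0.5.3p9 and MACS2. Each peak of the deposited m6A lists has a fold (ratio), and the number of peaks alone was used. 4842 lines of one list without a fold were left out. The sources used here do not give the annotation release or whether counting used strand, so overlapping and antisense genes cannot be told apart. No sequence table was used here.

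Within a replicate number, counts were scaled with TMM (edgeR 4.0.16, R 4.3.3) and divided. A count of 0 was set to a floor of 3 counts, and no ratio was given where neither library exceeded it. Genes with a mean of at least 1 CPM over the inputs were kept. Symbols matched 21939 IDs, and 394 of 608 entries of 24 gene lists matched. The members and lists were chosen with earlier results of these data known. Genes named were METTL3, the 12 with a symbol and at least 10 counts in each input with the largest smaller ratio in each direction, up to 4 members of a list past 2-fold, the writer partners and the 5 nearest to mettl3, beside list members chosen after their values were seen. 1 gene is not reported here.

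IP over input and RIP over control input were fitted over all genes with edgeR's quasi-likelihood test (filterByExpr, Benjamini-Hochberg). The fits were also run on simulated counts. These had a fixed spread and no differences between pairs or numbers beyond depth, so they cannot show how the fits perform on these libraries. The block of label and number in the IP fit rests on the labels. Between numbers, inputs and IPs of one label deviated together (Pearson r across genes 0.581 for control, 0.388 for morphant), as did the 2 labels (0.430 in inputs, 0.453 in IPs). Alternatives were other scalings (DESeq2 1.42.0 size factors, total counts), filters, folds, DESeq2 and leaving out libraries. Gene counts were 32.8 M to 78.3 M in MeRIP, 5.27 M to 7.90 M in RIP and 3.57 M to 4.75 M in endothelial libraries. Exact 95% intervals (binomial for ratios, Poisson for levels) cover counting error only.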

Additional observations from a re-analysis of the deposited data

How the results depend on the processing

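Scaling changed the counts of genes that follow mettl3 little: 34 to 36 were higher and 23 to 27 lower, and total counts moved the DNA damage list's median in number 2 to 0.22. The counts of genes higher with mettl3, lower with it, and in the label's direction were 104, 145 and 43 at 1.5-fold, 155, 179 and 200 with no filter, and 9, 9 and 1 at a mean of 10 CPM. At 4-fold 6 were higher and 2 lower. With at least 10 counts in each input, a filter chosen after seeing the data, 33, 24 and 1 remained. Without one replicate number 59 to 178 genes were higher and 93 to 180 lower. For IP over input, no replicate block gave 0 and 0 of the 35 genes higher and lower, and 3 of the 26 higher. Leaving out a pair gave 5 to 12 of the 26 higher and 3 to 8 lower. RIP over control input depended on most choices and its counts are of low precision. Over all genes, higher and lower calls were 407 and 14315 with total counts, 2957 and 2281 with DESeq2, 4051 and 5049 with all 4 inputs, 3600 lower with no filter, and 237 to 4470 and 50 to 6796 without a library. Of the genes higher with mettl3, calls were 1 higher and 2 lower with DESeq2 size factors, 30 lower with total counts, 1 and 7 with no filter, 1 and 5 with DESeq2, 1 and 5 with the replicate block, 1 and 4 with all 4 inputs, and 0 to 1 and 0 to 3 without a library. Of the lower genes, calls were 3 higher and 14 lower with total counts, 5 lower with no filter, 0 higher with all 4 inputs, and 0 to 8 and 0 to 5 without a library. The causes were not tested. RIP and control inputs share numbers that did not pair them (r = −0.01).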
